A study of Mus musculus with 11 samples.

Results

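Mouse skin taken 24 h after a single agent, ABBV-075, was compared with skin taken 6 h after the same agent, gene by gene. The comparison used 8 of the 11 arrays of the study: the 4 arrays of the 24 h group and the 4 arrays of the 6 h group, chosen by their titles, with no vehicle array. Of 18194 genes with a probe set annotated to them alone, 12875 were bright enough to be tested. Both groups received ABBV-075 at 1 mg/kg, and each array held total RNA of the skin of 1 mouse. By the labels the groups differ only in the hours after dosing. The labels give neither strain, sex, age nor the clock hour of dosing or collection, so the hours after dosing and the hour of the day cannot be told apart. Skin was taken whole, and in such bulk tissue fewer cells of a type and less RNA per cell cannot be told apart.

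ABBV-075, also called mivebresib, is an inhibitor of the bromodomains of the BET proteins, which read acetylated histones and recruit P-TEFb, the kinase that releases paused RNA polymerase II. P-TEFb is held inactive in a particle of 7SK RNA, Hexim1, Larp7 and Mepce, and a rise of Hexim1 RNA is a known early sign of BET inhibition in many cells. Skin also keeps a circadian clock, in which Arntl (Bmal1) with Clock or Npas2 activates the Per, Cry, Nr1d and Dbp genes through E-boxes, and the Per and Cry proteins then repress that activation. In the course of a day RNA of the activators and RNA of their targets therefore run in opposite phase.

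Levels are given as log2(quantile-normalized intensity + 16), on which 4.00 is the floor, and a difference is 24 h minus 6 h on that scale. Levels on single arrays are listed in the order of replicates 1, 2, 3 and 5 at 6 h, then replicates 1 to 4 at 24 h. An error after a difference is the standard error from limma, an error after a mean is the SD over 4 arrays, and adjusted p-values are limma's with Benjamini-Hochberg adjustment over the 12875 genes. Probe sets differ in brightness, so levels of different genes are not compared.

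With limma on the 8 arrays, 0 of 12875 genes passed an adjusted p of 0.05, in either direction. At an unadjusted p under 0.05 there were 393 genes higher (3.05%) and 544 lower (4.23%) at 24 h. In 706 genes (5.48%) the groups did not overlap, and of these 244 (1.9%) were higher and 462 (3.59%) lower at 24 h. The median difference over all genes was -0.02, the 5th and 95th percentiles were -0.49 and 0.55, and 47.1% of genes had a difference above 0. When each array was weighted by its scatter about its group (limma's array weights), 143 genes (1.11%) passed, 64 higher (0.497%) and 79 lower (0.614%). An unadjusted p under 0.05 was also commoner with the weights, with 1503 genes higher and 1546 lower at 24 h. The weights ran from 0.324 for 24 h replicate 4 to 3.32 for 6 h replicate 2. The count of calls therefore depends on that choice, and below each gene is given with its spread and the adjusted p of the unweighted fit.

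**Figure D1:**
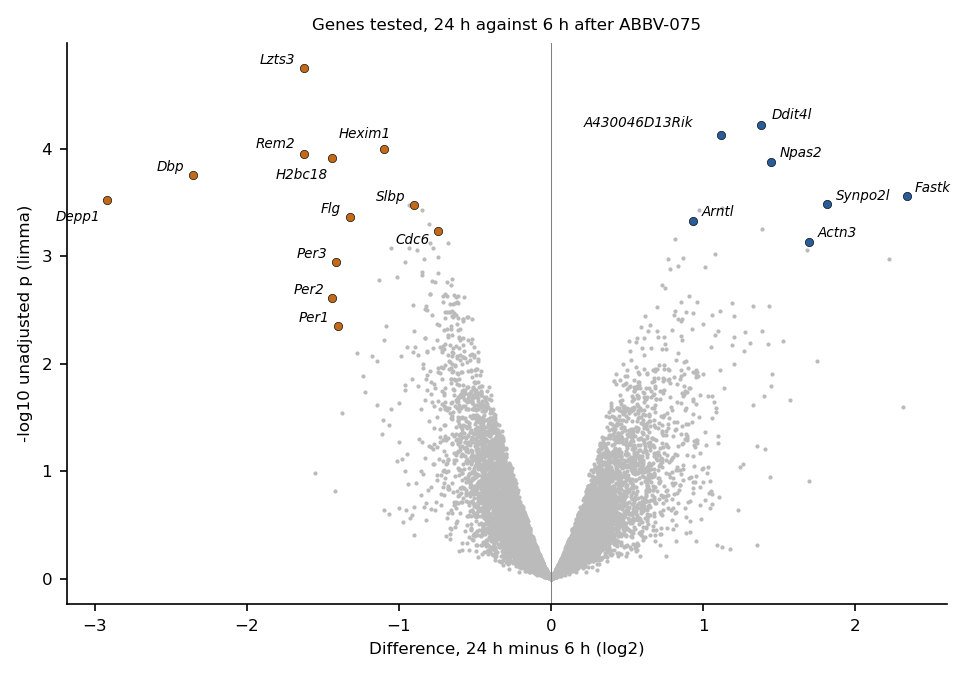
Each grey point is 1 of the 12875 genes tested, with the difference 24 h minus 6 h (log2) on the x axis and -log10 of the unadjusted limma p on the y axis; coloured and labelled points are genes described in the text. Clock, histone and replication genes stand among the points of smallest p on the lower side, and Ddit4l, Npas2 and muscle genes on the higher side, with 0 genes past the adjusted threshold.

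The arrays differed from each other within the groups, and in the Gapdh ratio given below also between the hours. The first principal component took 45.1% of the variance and set 6 h replicates 1 and 2 and 24 h replicate 4 (scores of -31.7, -21.3 and -61.4) apart from the other 5 arrays (8.27 to 45.9). On 24 h replicate 4 the mean of 11 basal keratinocyte markers was 11.25, against 8.92 to 10.46 on the others, and the mean of 17 fibroblast markers was 8.66, against 9.60 to 10.42. The keratinocyte keratins Krt5, Krt14, Krt1 and Krt10 had mean levels from 11.27 to 13.32 in the 2 groups, as the skin label has it. Array brightness, as the trimmed mean of deposited intensities, ran from 82.8 to 244 at 6 h and 116 to 183 at 24 h (exact two-sided permutation p = 0.943). The ratio of 5' to 3' signal of Gapdh, which is low where RNA is shortened, was 0.549 ± 0.297 at 6 h and 0.943 ± 0.112 at 24 h (SD, n = 4, exact two-sided permutation p = 0.0286, the smallest that 4 against 4 can give; adjusted over 3 such measures, 0.0857). The Gapdh ratio ran from 0.104 to 0.711 at 6 h and from 0.804 to 1.08 at 24 h, so the groups did not overlap. On 6 h replicate 5 that ratio was 0.104 and the actin ratio 0.0725, the lowest of the 8 arrays. The part of these array differences in the gene differences was not tested.

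The circadian clock genes held the widest group difference. All 10 tested genes of the repressor phase (Per1, Per2, Per3, Cry2, Nr1d2 and other targets of the activators) lay lower at 24 h. Their median difference was -0.89, against -0.02 over all genes. In 5 of these 10 the groups did not overlap, beside 3.59% of all genes in that direction. An unadjusted p under 0.05 was found in 7 of 10, beside 4.23% of all genes in that direction. Of 7 tested activator-phase genes, 5 lay higher at 24 h, with a median of 0.36, which was 0.21 without 6 h replicate 5. Array weights called 0.614% of all genes lower and 0.497% higher. Among these were 5 of the 10 repressor-phase genes (Dbp, Per1, Per2, Per3 and Tef), lower, and 2 of the 7 activator-phase genes (Arntl and Npas2), higher. None of these genes passed in the unweighted fit.

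Arntl, which encodes the common partner of the activator dimer, had levels of 7.56, 6.97, 7.28 and 7.35 at 6 h and 8.13, 8.15, 8.46 and 8.16 at 24 h. All 4 arrays at 24 h lay above all 4 at 6 h, and the difference was 0.93 ± 0.18 (adjusted p = 0.333). Npas2, which encodes the alternative partner of Arntl, had levels of 5.22, 4.75, 4.74 and 4.26 at 6 h and 5.91, 6.07, 6.24 and 6.55 at 24 h, also without overlap. Its difference was 1.45 ± 0.23 (adjusted p = 0.242), the third smallest p among genes that were higher at 24 h. Clock, the usual partner, differed by 0.25 ± 0.16, and its groups overlapped. Nfil3, a repressor that binds the same D-box element as Dbp, differed by 0.44 ± 0.36, and the lowest array was 6 h replicate 5 at 5.46. Arntl2, a paralogue of Arntl, differed by 0.36 ± 0.32, with overlap. Cry1, which encodes a repressor whose RNA peaks late, went the other way: it read 7.20, 7.47, 7.29 and 7.34 at 6 h and 6.96, 7.05, 6.85 and 6.60 at 24 h, lower by 0.46 (difference -0.46 ± 0.16, adjusted p = 0.606) without overlap. E2f8, an atypical E2F repressor placed on this list, differed by -0.42 ± 0.21.

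Dbp, which encodes a transcription factor of the PAR bZip family and is a direct target of the activators, had the largest difference of the clock genes. Its levels were 9.98, 10.14, 9.14 and 9.85 at 6 h and 6.86, 6.61, 7.89 and 8.32 at 24 h. The groups did not overlap, and the difference was -2.36 ± 0.39 (adjusted p = 0.283). A second probe set of Dbp differed by -1.93. Without 1 array at a time the difference of Dbp stayed between -2.69 and -2.07. Of the Dbp relatives, Tef read 9.73, 10.01, 9.17 and 8.90 at 6 h and 8.37, 7.92, 8.46 and 9.22 at 24 h, a difference of -0.96 ± 0.32 (adjusted p = 0.606) in which 24 h replicate 4 lay among the 6 h arrays. Hlf differed by -0.38 ± 0.30, again with 24 h replicate 4 (7.82) as its highest array.

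The 3 period genes, which encode the core repressors, gave closely alike differences. Per1 read 7.52, 7.88, 7.44 and 7.16 at 6 h and 6.16, 5.99, 5.11 and 7.13 at 24 h, a difference of -1.40 ± 0.38 (adjusted p = 0.494). Its groups were separated by a narrow margin, between 7.16 in 6 h replicate 5 and 7.13 in 24 h replicate 4. Per2 read 6.76, 7.17, 5.83 and 5.90 at 6 h and 4.67, 4.49, 5.31 and 5.45 at 24 h, a difference of -1.44 ± 0.35 (adjusted p = 0.464). Per3 read 8.39, 8.37, 7.41 and 7.69 at 6 h and 6.37, 5.96, 6.83 and 7.03 at 24 h, a difference of -1.42 ± 0.31 (adjusted p = 0.385). Per2 and Per3, too, were without overlap. All 6 probe sets of Per3 lay lower at 24 h (-1.42 to -0.21), as did all 3 of Per2 (-1.44 to -0.10).

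Nr1d2, which encodes the REV-ERB beta receptor that represses Arntl, read 10.63, 11.03, 10.67 and 11.18 at 6 h and 9.78, 9.61, 10.46 and 10.38 at 24 h. Its difference was -0.82 ± 0.24 (adjusted p = 0.536), without overlap, while a dimmer second probe set differed by 0.28. Bhlhe40, a repressor that competes at E-boxes, differed by -0.77 ± 0.32. Cry2 differed by -0.22 ± 0.31 and Usp2, a clock-driven deubiquitinase, by -0.12 ± 0.47, both with overlap; a second probe set of Usp2 differed by -0.98. Wee1, a kinase that holds back mitosis and a known output of the clock, read 7.69, 8.32, 7.46 and 7.43 at 6 h and 6.43, 6.24, 6.37 and 7.85 at 24 h. Its difference was -1.003 ± 0.371 (adjusted p = 0.607), and 24 h replicate 4 was the one array of its group inside the 6 h range. Nr1d1, Ciart and Bhlhe41 were too dim to be tested; Ciart, a repressor of the activator dimer, read 5.39, 5.94, 4.83 and 4.00 at 6 h and 4.00, 4.19, 4.00 and 4.46 at 24 h.

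**Figure D2:**
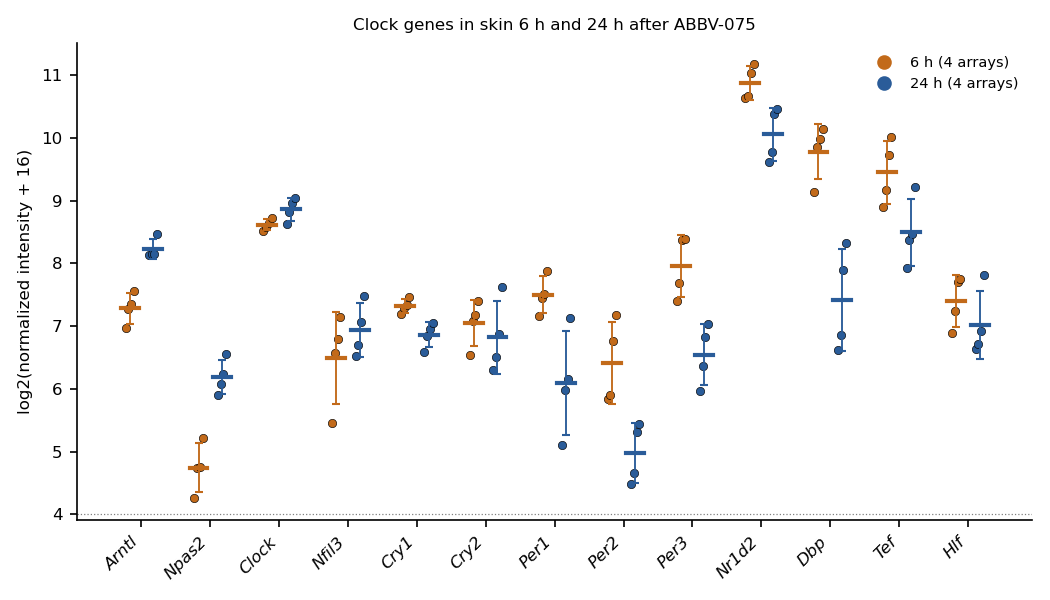
Each point is 1 array, orange for 6 h and blue for 24 h; the y axis is log2(normalized intensity + 16), bars are means with SD over 4 arrays, and the dotted line is the floor at 4. Arntl and Npas2 sit higher at 24 h, and Per1, Per2, Per3, Nr1d2 and Dbp sit lower, with no overlap between groups, while Clock, Nfil3, Cry2, Tef and Hlf overlap.

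The elements through which the clock is known to act were looked for in the promoter windows of these genes (250 bases before to 50 after each RefSeq start, GRCm38.p6, both strands). The E-box CACGTG was present in 7.15% of all 32851 windows, the D-box TTATGTAA in 0.938% and the ROR element TAGGTCA, bound by ROR and REV-ERB receptors, in 2.61%. Of 13 repressor-phase genes 11 had a window, of which 4 held an E-box (Per1, Tef, Ciart and Bhlhe41) and 1 a D-box (Per3). Of 8 activator-phase genes 7 had a window, of which 1 held an E-box (Cry1) and 2 a ROR element (Arntl and Nfil3). A match describes the letters only, and these windows leave out more distant elements. Stretches upstream of the start are printed 5' to 3' on the gene's strand, to show where these elements lie in clock genes of both lists, with the E-box, D-box or ROR element (reverse complement TGACCTA in Nfil3) in capitals.
Per1, chr11:69098749-69098828, plus strand: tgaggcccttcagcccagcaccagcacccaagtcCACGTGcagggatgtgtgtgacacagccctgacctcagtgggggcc
Tef, chr15:81802513-81802592, plus strand: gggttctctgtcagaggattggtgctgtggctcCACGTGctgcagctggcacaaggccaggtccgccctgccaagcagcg
Ciart, chr3:95882259-95882358, minus strand: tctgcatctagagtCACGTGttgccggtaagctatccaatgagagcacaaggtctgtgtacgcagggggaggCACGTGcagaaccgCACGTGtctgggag
Cry1, chr10:85185075-85185154, minus strand: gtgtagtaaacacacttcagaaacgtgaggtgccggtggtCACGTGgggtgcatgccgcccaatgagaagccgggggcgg
Per3, chr4:151044806-151044885, minus strand: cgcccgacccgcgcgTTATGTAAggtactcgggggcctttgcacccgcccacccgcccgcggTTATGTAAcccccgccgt
Nfil3, chr13:52981040-52981119, minus strand: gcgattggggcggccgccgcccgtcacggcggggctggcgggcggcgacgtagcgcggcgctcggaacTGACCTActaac
Ciart held 3 E-boxes within 100 bases and Per3 held 2 D-boxes within 80 bases. Of these genes Per1, Per3 and Cry1 were without overlap between the hours, Tef and Nfil3 overlapped and Ciart was not tested. Cry1, although it holds an E-box, was on the activator-phase list for its late peak and lay lower at 24 h with the Per genes.

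Hexim1, which encodes the inhibitory protein of the P-TEFb particle, had the second smallest p among genes that were lower at 24 h. It read 9.91, 9.75, 9.71 and 9.31 at 6 h and 8.49, 8.63, 8.63 and 8.55 at 24 h. The 24 h arrays agreed within 0.07 (SD) and all lay below the 6 h arrays, and the difference was -1.10 ± 0.17 (adjusted p = 0.242). A second probe set of Hexim1 differed by -1.28, and the difference stayed between -1.28 and -1.01 under all 27 other settings tried. Mepce, which encodes the enzyme that caps 7SK RNA, read 8.37, 7.91, 7.73 and 7.68 at 6 h and 7.24, 7.11, 7.31 and 7.45 at 24 h, a difference of -0.64 ± 0.19 (adjusted p = 0.538), also without overlap. All 3 probe sets of Mepce lay lower (-1.29 to -0.16). Of 17 tested genes for P-TEFb, the 7SK particle and the super elongation complex, 10 lay lower and 7 higher. Their median was -0.12 (-0.05 without 24 h replicate 3 and -0.21 without 24 h replicate 2). Hexim1 and Mepce were the 2 of the 17 without overlap, beside 3.59% of all genes in that direction. Ell2, an elongation factor of the super elongation complex, differed by -0.43 ± 0.21, and its second probe set by 0.29. Mllt1, which encodes its acetyl-lysine reader ENL, differed by 1.07 ± 0.39, near the floor at 6 h (5.35, 4.69, 4.02 and 4.00) and with overlap.

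The BET genes tested gave small differences. Brd2 read 10.50, 10.22, 9.85 and 9.38 at 6 h and 9.38, 9.53, 9.34 and 10.22 at 24 h, a difference of -0.37 ± 0.29, and Brd3 differed by -0.09 ± 0.19. Brdt, known from the testis, differed by -0.47 ± 0.28 at low levels. Of 4 tested genes reported elsewhere as markers of BET inhibitor exposure, Hexim1 lay lower without overlap and Zmynd8, a chromatin reader, lay higher without overlap. Zmynd8 read 8.55, 8.24, 8.17 and 8.41 at 6 h and 8.76, 9.10, 8.74 and 9.60 at 24 h, a difference of 0.71 ± 0.22 (adjusted p = 0.577), and its 5 probe sets differed by 0.71 to 0.88. Zcchc24 differed by 0.12 ± 0.29 and Cd180 by -0.02 ± 0.23, both with overlap and with a sign that turned under other settings. A second, dimmer probe set of Zcchc24 differed by 0.71.

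Myc, the growth-promoting factor whose RNA many BET inhibitor studies follow, read 8.09, 8.07, 7.67 and 7.20 at 6 h and 6.93, 7.55, 7.43 and 8.16 at 24 h. The groups overlapped almost fully, and the difference was -0.24 ± 0.30 (adjusted p = 0.908). Of the 11 genes of the Myc network 9 lay lower, with a median of -0.16 and none without overlap. Mycl, a Myc paralogue, differed by -0.37 ± 0.22, with other probe sets up to 0.21, and Max, the partner of Myc, by 0.51 ± 0.33. Ribosome biogenesis genes, many of them Myc targets, lay lower in 18 of 26, with a median of -0.09 that ran from -0.24 without 24 h replicate 4 to -0.02 without 24 h replicate 3. Among these Npm1, a nucleolar chaperone, differed by -0.39 ± 0.15 without overlap, and Ddx21, a nucleolar helicase, by -0.41 ± 0.18 with overlap.

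Histone genes with polyadenylated or replication-independent transcripts lay lower at 24 h in 9 of the 14 tested of 25 listed, with a median of -0.35, which was -0.23 without 6 h replicate 1. The mean of the 14 was 8.32 to 8.39 on the 6 h arrays and 7.98 to 8.18 on the 24 h arrays. H2bc18, an H2B gene, read 7.40, 7.18, 7.48 and 7.44 at 6 h and 5.29, 6.28, 5.98 and 6.18 at 24 h, a difference of -1.44 ± 0.23 (adjusted p = 0.242). H2aw, an H2A gene, read 9.88, 9.34, 9.19 and 9.19 at 6 h and 8.66, 8.55, 8.71 and 8.51 at 24 h, a difference of -0.79 ± 0.19 (adjusted p = 0.464). H1f2, a linker histone gene, differed by -0.64 ± 0.23. These 3 were the histone genes without overlap, beside 3.59% of all genes in that direction. Of the 14, 5 had an unadjusted p under 0.05, all lower, beside 4.23% of all genes in that direction. Histone genes have near-identical copies, so that a probe set may read more than 1 of them. Slbp, which encodes the protein that binds the stem-loop of histone messages, read 9.74, 9.44, 9.44 and 9.28 at 6 h and 8.54, 8.65, 8.40 and 8.71 at 24 h. Its difference was -0.90 ± 0.16 (adjusted p = 0.302), without overlap.

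DNA replication genes lay lower at 24 h in 23 of 24 tested, against 52.9% of all genes, with a median of -0.43. The groups did not overlap in 3 of them, beside 3.59% of all genes in that direction. An unadjusted p under 0.05 was found in 6, all lower, beside 4.23% of all genes in that direction. Cdc6, which with Cdt1 loads the replicative helicase, read 5.78, 5.78, 5.67 and 5.47 at 6 h and 4.92, 4.96, 4.88 and 4.95 at 24 h, a difference of -0.75 ± 0.15 (adjusted p = 0.360). Cdt1 read 8.03, 7.95, 8.04 and 7.94 at 6 h and 6.64, 7.62, 6.85 and 7.58 at 24 h, a difference of -0.82 ± 0.24. Mcm4, a helicase subunit, read 8.75, 8.76, 8.89 and 8.79 at 6 h and 7.73, 8.47, 7.74 and 8.24 at 24 h, a difference of -0.75 ± 0.20 (adjusted p = 0.493). In both Cdt1 and Mcm4 the 6 h arrays were nearly equal and the 24 h arrays fell into a lower pair, replicates 1 and 3, and a higher pair, replicates 2 and 4. The same pairs were seen in Mcm2 (difference -0.96 ± 0.33), Mcm5 (-0.81 ± 0.32) and the sliding clamp gene Pcna (-0.66 ± 0.22), whose groups overlapped. Outside the list, Ung, a uracil-DNA glycosylase, read 7.03, 7.51, 7.01 and 6.93 at 6 h and 5.85, 6.38, 5.71 and 6.34 at 24 h (difference -1.05 ± 0.22, adjusted p = 0.376). Hells, a chromatin remodeller of dividing cells, differed by -1.13 ± 0.26 (adjusted p = 0.451), also without overlap. With array weights 6 of the 24 listed genes (Cdc6, Cdt1, Mcm2, Mcm4, Mcm5 and Pcna) were called lower, beside 0.614% of all genes. Ung, Hells and Slbp, which are outside the list and were added after their values were seen, were also called lower with the weights.

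The mitosis genes did not follow the replication genes. Of 23 tested cell cycle and mitosis genes 18 lay higher at 24 h, with a median of 0.15. Beside 1.9% of all genes that were higher without overlap, 1 of the 23 was. That gene was Ttk, a kinase of the spindle checkpoint, with levels of 6.53, 6.44, 6.93 and 6.80 at 6 h and 7.41, 7.08, 7.41 and 7.20 at 24 h and a difference of 0.60 ± 0.18 (adjusted p = 0.530). Nusap1, a spindle protein gene, differed by 0.49 ± 0.24. The list mean was 7.34 on 24 h replicate 4, against 5.94 to 6.59 on the other 7 arrays, and without that array the median of the list was -0.08, while it was 0.33 without 24 h replicate 3. The basal keratinocyte marker mean was also highest on that array, and its part in the mitosis values was not tested. Without the same array the median of the replication genes was -0.57.

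**Figure D3:**
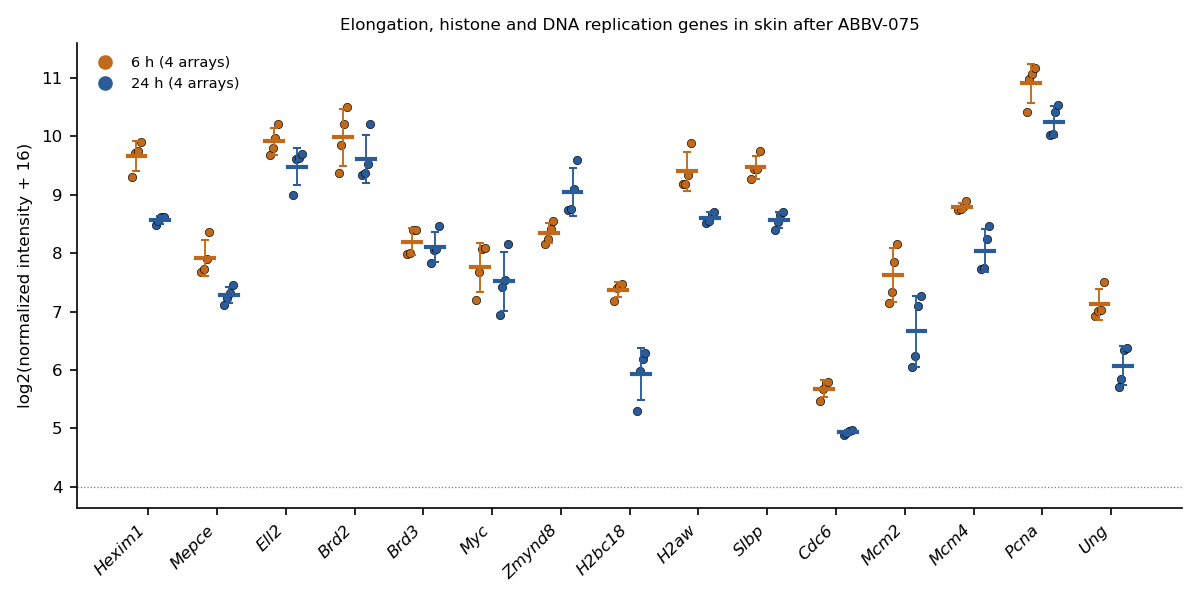
Each point is 1 array, orange for 6 h and blue for 24 h, on log2(normalized intensity + 16), with means and SD over 4 arrays and the floor dotted. Hexim1, Mepce, H2bc18, H2aw, Slbp, Cdc6, Mcm4 and Ung separate with the 24 h arrays lower, Zmynd8 separates with them higher, and Brd2, Brd3, Myc, Ell2, Mcm2 and Pcna overlap.

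Of 23 rapidly induced, immediate early genes 17 lay lower at 24 h, with a median of -0.29, which was -0.15 without 24 h replicate 1. An unadjusted p under 0.05 was found in 4, all lower, beside 4.23% of all genes in that direction. Ier5 read 9.29, 9.19, 9.29 and 9.63 at 6 h and 8.63, 9.03, 8.97 and 7.71 at 24 h (difference -0.77 ± 0.29, adjusted p = 0.607), and Egr3, a zinc finger factor, differed by -0.44 ± 0.17, both without overlap; 1 of the 3 probe sets of Ier5 differed by 0.13. Fos differed by -0.86 ± 0.57, an error set by 6 h replicate 1 at 9.97 against 7.33 to 8.16 on the other 6 h arrays, and by -0.27 without that array. Of 20 glucocorticoid-responsive genes 16 lay lower, with a median of -0.41. Besides Per1, which is on both lists, Tsc22d3, the gene of the glucocorticoid-induced leucine zipper, read 10.17, 11.14, 10.46 and 10.63 at 6 h and 9.69, 9.46, 9.93 and 10.01 at 24 h. Its difference was -0.83 ± 0.23 (adjusted p = 0.509), without overlap, and all 4 of its probe sets lay lower.

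The p53, Atf4, heat shock and NF-kB lists had medians near that of all genes (-0.02). Of 15 p53 target genes 9 lay higher, with a median of 0.05, while Pmaip1, which encodes the death-promoting Noxa, lay lower without overlap (difference -0.82 ± 0.27). Of 20 Atf4 and endoplasmic reticulum stress genes 10 lay higher and 10 lower; Ddit3, the gene of CHOP, lay lower without overlap (-0.62 ± 0.19), and Sesn2, which is on both lists, differed by -0.70 ± 0.25. Of 16 heat shock and chaperone genes 10 lay lower, with a median of -0.09. In 3 of the 16 the groups did not overlap, all lower, beside 3.59% of all genes in that direction. Dnajb1, which was 1 of the 3, differed by -0.36 ± 0.15, and Hspa1b differed by -0.50 ± 0.23 with overlap. Of 15 NF-kB targets and feedback genes 8 lay lower, with a median of -0.06. Rel and Icam1 were the 2 of the 15 that lay lower without overlap, beside 3.59% of all genes in that direction. They differed by -0.48 ± 0.17 and -0.36 ± 0.18. Without 1 array at a time the medians of these 4 lists lay between -0.24 and 0.08. Interferon-stimulated genes lay higher in 20 of 26, with a median of 0.27, but the median was 0.04 without 24 h replicate 2. Of these Ifitm3, which restricts virus entry, read 11.17, 11.03, 11.19 and 11.01 at 6 h and 11.88, 11.27, 11.59 and 11.54 at 24 h (difference 0.47 ± 0.17, adjusted p = 0.607), and Oasl2 differed by 0.74 ± 0.29 with overlap.

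Genes of striated muscle, which lies beneath mouse skin as the panniculus carnosus, were higher at 24 h in 22 of 23 markers, with a median of 0.43. The groups did not overlap in 5, all higher, beside 1.9% of all genes in that direction. Actn3, an actinin of fast fibres, read 9.66, 9.54, 8.62 and 9.07 at 6 h and 10.96, 10.10, 10.97 and 11.66 at 24 h, a difference of 1.70 ± 0.35 (adjusted p = 0.376). Myoz1, a Z-disc protein gene, differed by 0.70 ± 0.20 (adjusted p = 0.509), and Tmod4, which caps actin filaments, by 0.62 ± 0.22, both without overlap. Pygm, muscle glycogen phosphorylase, differed by 1.44 ± 0.82, with 6.61 on 6 h replicate 5 and 11.52 on 24 h replicate 4. Synpo2l, which encodes another Z-disc protein and was not on the list, read 6.44, 7.46, 6.62 and 7.15 at 6 h and 8.55, 8.32, 8.46 and 9.60 at 24 h (difference 1.82 ± 0.33, adjusted p = 0.302). The list mean was 11.75, 11.95, 11.16 and 10.94 at 6 h and 12.02, 11.45, 11.94 and 12.53 at 24 h, so that the arrays overlapped in their overall muscle level; how much muscle each piece of skin held was not tested. Oxidative phosphorylation genes, abundant in muscle, lay higher in 23 of 25, with a median of 0.17 and none without overlap; Sdhb differed by 0.31 ± 0.18 and Uqcrfs1 by 0.33 ± 0.20.

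Genes of keratinocyte differentiation lay lower at 24 h in 18 of 22, with a median of -0.27, which was -0.15 without 24 h replicate 2. Flg, which encodes profilaggrin of the cornified layer, read 10.62, 10.23, 9.81 and 10.07 at 6 h and 9.36, 8.56, 8.995 and 8.50 at 24 h, a difference of -1.33 ± 0.25 (adjusted p = 0.326). It was the one gene of the 22 without overlap, beside 3.59% of all genes in that direction. The difference of Flg stayed between -1.50 and -1.20 without 1 array at a time. Lce1c, a late cornified envelope gene, differed by -0.70 ± 0.31. Hrnr, a relative of Flg, differed by -0.96 ± 0.53 and Ivl, an envelope precursor, by -0.65 ± 0.39; both were lowest on 24 h replicate 4 (6.91 and 7.48). Of 11 basal keratinocyte markers 8 lay higher, with a median of 0.15, which was -0.24 without 24 h replicate 4 and 0.42 without 24 h replicate 3. Hair shaft genes lay higher in 14 of 15 tested, with a median of 0.53, and this rested on 24 h replicate 2: its list mean was 8.86 against 5.30 to 6.91 on the other arrays, and the median was -0.27 without it. Of hair keratin genes, Krt81 read 9.03 on that array and 6.61 to 7.10 on the others, and Krt32 differed by 0.60 ± 0.32 with overlap.

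Of 16 fatty acid synthesis genes 14 lay lower at 24 h, with a median of -0.21, which was -0.03 without 6 h replicate 2 and -0.33 without 6 h replicate 5. Acly, which makes cytosolic acetyl-CoA from citrate, read 11.44, 11.58, 11.21 and 11.33 at 6 h and 10.97, 10.69, 10.63 and 10.82 at 24 h, a difference of -0.61 ± 0.16 (adjusted p = 0.464), without overlap, and its 6 probe sets all lay lower. Acss2, which makes acetyl-CoA from acetate, differed by -0.49 ± 0.20. Thrsp, a regulator of fat synthesis, differed by -1.10 ± 0.85, an error set by the 24 h arrays at 11.55, 8.86, 10.54 and 6.85. Cholesterol synthesis genes lay lower in 12 of 19, with a median of -0.18, which was -0.04 without 6 h replicate 1 and -0.31 without 6 h replicate 5. Of 15 adipocyte markers 9 lay higher, with a median of 0.03, which was 0.57 without 24 h replicate 4 and -0.13 without 24 h replicate 1. Plin4, a lipid droplet coat gene, read 9.03, 8.99, 9.33 and 9.40 at 6 h and 9.97, 9.45, 10.12 and 9.51 at 24 h (difference 0.57 ± 0.21, adjusted p = 0.607), without overlap. Cidec and Mest, both of fat cells, differed by 0.93 ± 0.61 and 1.24 ± 0.66 with overlap.

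**Figure D4:**
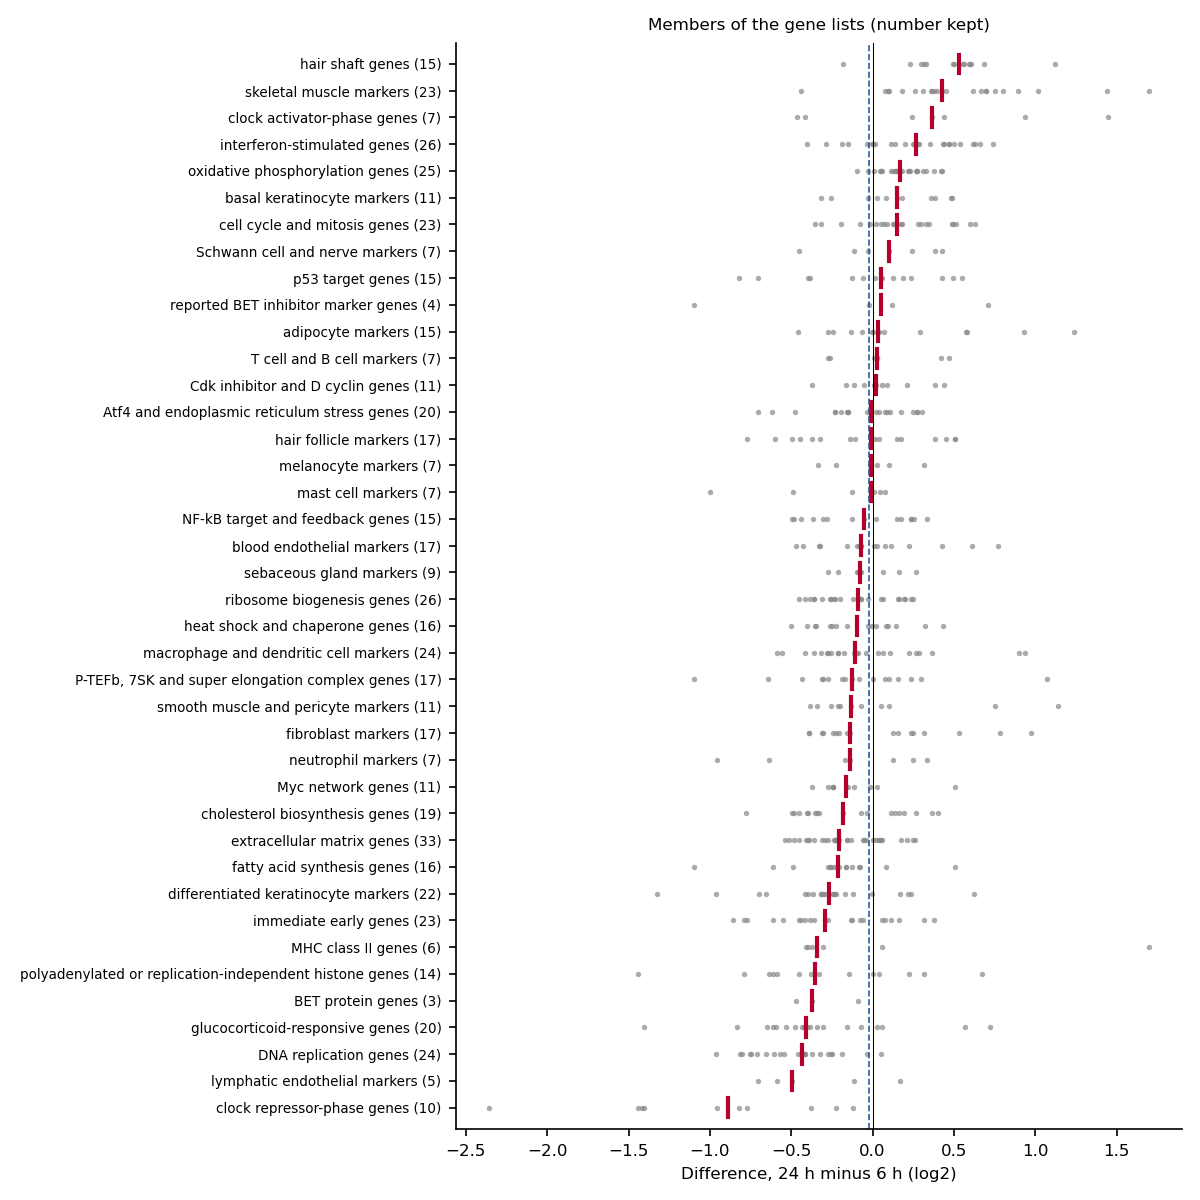
Each grey point is 1 tested gene of a list, at its difference 24 h minus 6 h (log2) on the x axis; red bars are list medians, the dashed line is the median of all genes (-0.02), and the number tested stands in brackets. Furthest to the left are clock repressor-phase genes (-0.89), lymphatic endothelial markers (-0.49) and DNA replication genes (-0.43). Next are glucocorticoid-responsive (-0.41), BET (-0.37) and histone genes (-0.35). Hair shaft genes (0.53), skeletal muscle markers (0.43) and clock activator-phase genes (0.36) lie furthest to the right.

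Markers of the other cell types of skin showed no common shift. Fibroblast markers lay lower in 9 of 17 (median -0.14), macrophage and dendritic cell markers in 15 of 24 (-0.11), blood endothelial markers in 9 of 17 (-0.07) and extracellular matrix genes in 23 of 33 (-0.21), with none without overlap. Without 24 h replicate 4 these medians were 0.36, 0.51, 0.18 and 0.07. T cell and B cell markers (median 0.03), mast cell markers (-0.01), melanocyte markers (-0.01), sebaceous gland markers (-0.08), hair follicle markers (-0.01), neutrophil markers (-0.14), smooth muscle and pericyte markers (-0.13) and nerve markers (0.10) also had none without overlap, and without 1 array at a time these 8 medians lay between -0.29 and 0.23. Of 5 lymphatic endothelial markers 4 lay lower (median -0.49, and -0.08 without 24 h replicate 4). Of 6 MHC class II genes 4 lay lower, with a median of -0.34 (-0.19 without 24 h replicate 4). H2-Aa, the alpha chain of an antigen-presenting dimer, was the one without overlap (difference -0.40 ± 0.19), beside 3.59% of all genes in that direction. H2-Eb1 went the other way, with a difference of 1.70 ± 1.00 and overlap: it read 6.33, 6.19, 9.86 and 6.33 at 6 h and 9.87, 6.58, 10.48 and 8.58 at 24 h, so that arrays of both hours were high and low.

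**Figure D5:**
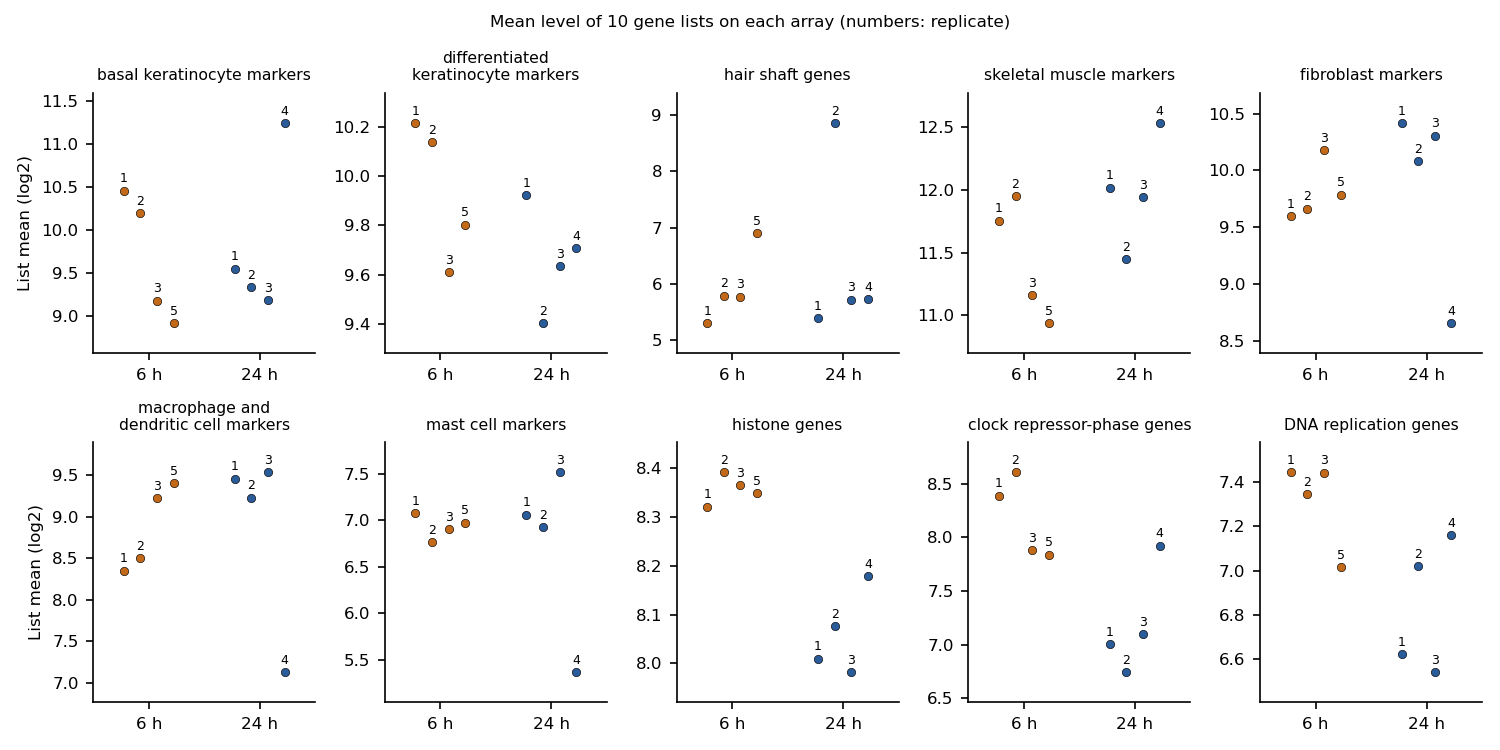
Each point is the mean level (log2) of a list's tested genes on 1 array, labelled with its replicate number, with a y axis of its own in each panel that does not start at 0. The histone list separates the hours on all 8 arrays, clock repressor-phase genes separate them except for 24 h replicate 4, and that array is set apart in the fibroblast, macrophage, mast cell and basal keratinocyte panels.

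Of single genes ranked by p, Ddit4l (an inhibitor of mTORC1 signalling, abundant in muscle) was first among those that were higher at 24 h. It read 8.29, 8.85, 8.64 and 9.18 at 6 h and 10.14, 10.13, 10.14 and 10.07 at 24 h. The 24 h arrays were nearly equal, and the difference was 1.38 ± 0.20 (adjusted p = 0.242). This was the largest difference of the 3 probe sets of Ddit4l, and the others differed by 0.85 and 0.21. Next was A430046D13Rik, with a difference of 1.12 ± 0.17 (adjusted p = 0.242). Fastk, which encodes a mitochondrial RNA-binding protein, read 4.00, 5.94, 4.00 and 4.00 at 6 h and 6.84, 6.73, 6.72 and 7.01 at 24 h. It stood at the floor on 3 of 4 arrays at 6 h, so its difference of 2.34 ± 0.41 (adjusted p = 0.302) depends on the constant added before the logarithm. Rxrg, a retinoid X receptor gene, differed by 1.39 ± 0.27, Adh6b, an alcohol dehydrogenase gene, by 1.68 ± 0.35, Metap1d, a mitochondrial aminopeptidase gene, by 1.44 ± 0.36 and Serpinb12, an epithelial serpin gene, by 1.43 ± 0.41. The first 3 of these were without overlap but close to the floor at 6 h.

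Lzts3, which encodes a leucine zipper protein of synapses, had the smallest p of all genes. It read 6.01, 5.49, 5.98 and 5.26 at 6 h and 4.00, 4.00, 4.00 and 4.23 at 24 h, a difference of -1.63 ± 0.20 (adjusted p = 0.228) against arrays at the floor. Rem2, which encodes a small GTPase that inhibits calcium channels, read 5.52, 5.43, 5.96 and 6.46 at 6 h and 4.00, 4.57, 4.29 and 4.00 at 24 h, a difference of -1.63 ± 0.26 (adjusted p = 0.242), while a second, dimmer probe set differed by 0.08. Depp1, a FoxO target that acts on autophagy, had the widest difference named here. It read 8.95, 8.13, 6.87 and 7.03 at 6 h and 4.27, 4.00, 5.53 and 5.48 at 24 h, a difference of -2.92 ± 0.52 (adjusted p = 0.302) without overlap, and its second probe set differed by -1.32. The 2 probe sets are of like brightness, and where 6 h replicate 1, 2 or 5 was left out the second became the brighter and gave a smaller difference, down to -1.06 without 6 h replicate 1. With array weights Ddit4l, A430046D13Rik, Npas2, Synpo2l, Rxrg, Adh6b and Serpinb12 were among the genes called higher, and Lzts3, Rem2, Depp1, Hexim1, H2bc18, Dbp and Flg among those called lower.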

How the data were processed

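Skin RNA of 8 mice was read on 1 Affymetrix mouse array each; per the labels' protocols, biotinylated cRNA was made with a 3' IVT kit from 200 ng of RNA. The authors deposited probe set intensities on a linear scale; the sources used here do not name the software or scaling behind them. The deposited trimmed means differed between arrays, so the 8 arrays were quantile-normalized, values below 0 were set to 0, and log2(intensity + 16) was taken, which understates differences of dim genes. Of 45101 probe sets, 34958 were annotated to 1 gene (34754 matched by Entrez identifier), 932 to several and 9211 to none here. Each gene was its brightest probe set, kept where it lay above the 40th percentile on at least 4 arrays. The 2 groups were fitted in limma 3.58.1 (lmFit, eBayes; R 4.3.3), two-sided, with Benjamini-Hochberg adjustment and a threshold of 0.05; the fit was tested on simulated data. The 8 mice are separate samples and no mouse was dropped or imputed. Replicate numbers were not taken as pairs in the reported fit. Deviations of same-numbered arrays correlated at -0.11, -0.37 and 0.17, and those of differently numbered arrays at -0.56 to 0.58. With so few arrays these values cannot show whether the mice were paired. Genes named were the 5 of smallest p in each direction, a fixed set, and the 2 of smallest p in each list described; Slbp, Ung, Hells, Depp1, 26 others, and Ciart and H2-Aa, were added after their values were seen, the last pair without alternatives of their own. The comparison, gene lists and named genes were chosen with earlier results of these data known, so the lists were described by counts and medians with no test. Promoter windows are those of RefSeq on GRCm38.p6; the array files hold no coordinates.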

Additional observations from a re-analysis of the deposited data

Results flagged for a closer look

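In groups of 4 arrays, 14 of 268 groups examined had 1 array whose gap to the next was over 0.829 of the range, Dixon's critical value, and chance gives about 1 in 20, or 13.4. At 6 h these were the highest array for Fastk (5.94) and H2-Eb1 (9.86) and the lowest for the Gapdh 5' to 3' ratio (0.104). At 24 h they were the highest array for Lzts3 (4.23), Arntl (8.46), Brdt (7.12), Krt81 (9.03), Wee1 (7.85) and Metap1d (6.87) and the lowest for Ell2 (9.001). For Fastk and Lzts3 the other arrays of the group all stood at the floor. Any value above the floor is then flagged, so the rate of 1 in 20 does not hold for them. Among list means at 24 h, immediate early genes (8.55) and hair shaft genes (8.86) were highest on replicate 2, and lymphatic endothelial markers (6.36) and macrophage and dendritic cell markers (7.13) were lowest on replicate 4.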

How the results depend on the processing

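The number of genes called was 0 in the reported fit, and it was 143 (64 higher, 79 lower) with array weights, 1 (lower, Lzts3) with a pseudocount of 4, and 4 with the first principal component as a covariate, an alternative chosen after seeing the data (2 higher, Npas2 and Metap1d; 2 lower, Lzts3 and Rem2). Leaving out 1 array at a time gave 0 to 1 genes in all, 0 to 1 higher, the 1 being Fastk without 6 h replicate 2. With the replicate block (pairs 1 to 3) the count was 0, with an unadjusted p under 0.05 in 1075 genes on the higher and 814 on the lower side, and it was 0 under each remaining setting, including an adjusted p of 0.1. The median difference over all genes was 0.07 in the values as deposited and -0.13 with median scaling, where 166 genes were higher against 27 lower and 242 higher against 860 lower by the same unadjusted p. Over the 90 named genes and 27 settings, 19 values turned sign, all in 4 genes; the cause was not tested. Cd180 was 0.0893 with the actin ratio as a covariate, 0.16 with array weights, 0.0429 with cyclic loess, 0.00688 with the first principal component, 0.18 with the replicate block, 0.19 as deposited and 0.18 without 6 h replicate 5 and 24 h replicate 4 together, and -0.20 to 0.14 without 1 array. Zcchc24 was -0.0123 with the actin ratio, -0.0160 with median scaling and -0.0302 to 0.33 without 1 array. Arntl2 was -0.0341 with the replicate block and -0.0341 without those 2 arrays together. Usp2 ran from -0.48 to 0.24 without 1 array. Clock repressor-phase, DNA replication and histone medians were below 0 under all 27 settings. So were those of the BET, Myc network, ribosome biogenesis, heat shock, immediate early and glucocorticoid-responsive lists. The cholesterol, fatty acid synthesis, MHC class II, differentiated keratinocyte and lymphatic endothelial medians were also below 0 under all 27. Clock activator-phase, skeletal muscle and interferon-stimulated medians were above 0 under all 27. Arrays at the floor give only a bound to dim genes, and the number of arrays limits precision.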
